A study of Mus musculus with 16 samples.

Results

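Cholesterol synthesis, uptake and export were followed through 29 genes in the uteri of ovariectomised mice, out of 25862 genes tested on the same arrays. The 29 were taken by symbol as genes of this pathway, a rule that uses no measured value, though it was set with earlier results of these data known. They comprise 18 enzymes of synthesis, 5 genes of the sterol sensor, 3 carriers that move sterol inside the cell and 3 genes of export and receptor turnover. RNA was hybridised to 16 one-colour Agilent arrays, 1 per sample, in 4 groups of 4.

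The first group, Arg260 E2, held mice whose estrogen receptor alpha (ERα, the product of Esr1) is of the form named for its arginine Arg260, given 8 µg/kg of 17β-estradiol (E2). Arg260 PLB mice carried the same receptor and received the castor oil vehicle alone (0 µg/kg). WT E2 and WT PLB mice had the wild-type receptor and the same injections. All were injected under the skin and sampled after 6 h, and all had been ovariectomised when 4 weeks old and left for 2 to 3 weeks before the injection. The labels do not state how the arginine was changed, nor whether each sample is a different animal. The p-values below therefore set differences of group means against the spread between these samples, which may in part be technical.

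Cells build cholesterol from acetyl-CoA through mevalonate to 5-carbon isoprenoid units, join these to squalene, close the rings and then trim and rearrange the sterol. When sterol in the endoplasmic reticulum is scarce, SCAP escorts the SREBP transcription factors to the Golgi, where they are cut free to switch on the genes of synthesis, and when sterol is plentiful INSIG proteins hold SCAP back. Oxysterols activate the LXR receptors, which switch on the exporters ABCA1 and ABCG1 and the ubiquitin ligase gene Mylip, whose product marks lipoprotein receptors for breakdown. In the uterus, estrogen sets off tissue swelling and growth, and growing cells need sterol for new membranes.

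Values are log2 spot signals minus the log2 of the array's 75th percentile, so that 0 is a spot at that percentile, and changes are differences of group means of such values. Between 61.6% and 70.6% of the non-control spots of an array were well above background. All 29 genes were well above background in every group, with 1 spot left out (Idi1 on WT PLB replicate 2, which the deposited series table lists as missing). Of 7 genes that mark the uterus, all were well above background in every group, and Pgr, the progesterone receptor gene and a known estrogen target, rose by 2.37 with E2 in Arg260 and by 2.12 in WT. Of the 2 slides, slide 1 carried replicates 1 and 2 of each group and slide 2 carried replicates 3 and 4. WT E2 replicate 3, Arg260 PLB replicate 3 and WT PLB replicate 2 stood apart from their groups in some genes. Without these 3 arrays together, a check added after the data were seen, 16 of the 29 genes were called higher with E2 and 8 lower in Arg260, and 15 higher and 9 lower in WT. Arg260 E2 replicate 3 and WT E2 replicate 1, which were low for the enzymes of synthesis (below), stayed in this check.

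With E2, 16 of the 29 genes rose and 8 fell in Arg260 uteri, and 16 rose and 9 fell in WT uteri (limma, adjusted p under 0.05). Of all genes tested, 33.7% were called higher and 30.9% lower in Arg260, and 32.0% higher and 31.9% lower in WT. The call was the same in both genotypes for 28 genes, the exception being Insig2. The median change over the 29 was 0.61 in Arg260 and 0.58 in WT, beside 0.017 and -0.026 over all genes tested. The range ran from -2.11 to 3.85 in Arg260 and from -2.20 to 3.62 in WT. E2 and PLB arrays did not overlap for 23 of the 29 genes in Arg260, beside 58.7% of all genes tested, and for 24 of the 29 in WT, beside 59.3%. Of the 18 enzymes of synthesis 11 rose, 3 fell and 4 were not called, in each genotype, while all 3 genes of export and receptor turnover fell in both.

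**Figure D1:**
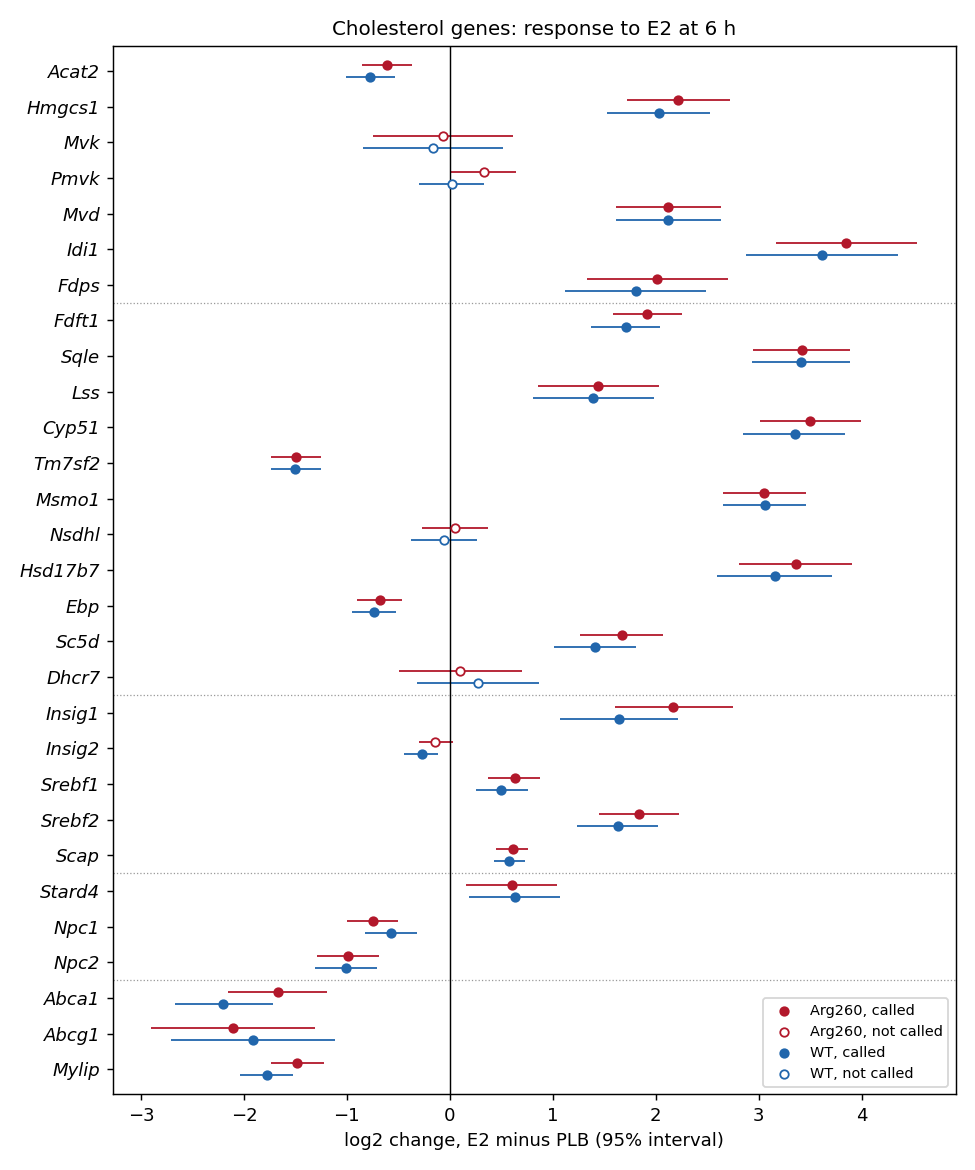
Log2 change with E2 (E2 minus PLB, horizontal axis) of the 29 genes, with the 95% interval from the limma fit. Red points above are Arg260 and blue points below WT, filled where called at an adjusted p under 0.05 and open where not. Dotted lines part the mevalonate steps, the steps from squalene to cholesterol, sensing, movement, and export with receptor turnover. Red and blue points of a gene lie close together, from about -2 for Abca1 and Abcg1 to 3.85 in Arg260 for Idi1.

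Of the 7 genes of the mevalonate steps, Hmgcs1, Mvd, Idi1 and Fdps rose in both genotypes. Idi1, which encodes the isomerase that makes the reactive isoprenoid unit, had the largest rise of all 29 genes. Idi1 read 3.92, 3.90, 3.04 and 3.62 on the 4 Arg260 E2 arrays, against -0.02, -0.48, -0.59 and 0.17 on the Arg260 PLB arrays. In WT, Idi1 read 2.28, 3.21, 4.00 and 2.89 with E2, against -0.26, -0.64 and -0.67 on the 3 PLB arrays that measured it. The E2 arrays lay above the PLB arrays in both genotypes without overlap. The rise of Idi1 was 3.85 in Arg260 (14.5-fold, SE 0.32, adjusted p = 1.31e-07) and 3.62 in WT (12.3-fold, SE 0.34, adjusted p = 5.39e-07). With the spot on WT PLB replicate 2 kept, the WT rise of Idi1 was 5.58 (SE 1.32).

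Hmgcs1 encodes the enzyme that makes HMG-CoA, and it ranged from 4.16 to 4.91 on Arg260 E2 arrays, against 2.31 to 2.72 on Arg260 PLB arrays, and from 3.70 to 5.10 on WT E2 arrays, against 2.28 to 2.42 on WT PLB arrays. Mvd, the gene of the decarboxylase before Idi1, rose by 2.12 (SE 0.24) in Arg260 and by 2.12 (SE 0.24) in WT, and Hmgcs1 rose by 2.22 (SE 0.23) in Arg260 and by 2.03 (SE 0.23) in WT. Fdps encodes the synthase of farnesyl diphosphate, where the paths to sterols and to other isoprenoids part, and it rose by 2.01 (SE 0.32) in Arg260 and by 1.81 (SE 0.32) in WT. E2 and PLB arrays did not overlap for any of these 3 genes in either genotype.

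Neither kinase gene of the steps between Hmgcs1 and Mvd was called. Mvk, which encodes mevalonate kinase, read 2.24, 1.91, 1.38 and 2.04 on Arg260 E2 arrays, against 2.01, 1.72, 1.69 and 2.42 on Arg260 PLB arrays. In WT, Mvk read 0.92, 1.69, 2.92 and 1.69 with E2, against 1.91, 1.99, 2.01 and 1.96 with PLB. The groups overlapped, and the WT E2 arrays held both the lowest and the highest Mvk value of all 16. Mvk was not called, at -0.07 (95% interval -0.75 to 0.61, adjusted p = 0.861) in Arg260 and -0.16 (-0.84 to 0.52, adjusted p = 0.683) in WT.

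Pmvk, the phosphomevalonate kinase gene, read 3.56, 3.48, 3.18 and 3.53 on Arg260 E2 arrays, against 3.22, 3.09, 2.95 and 3.18 on Arg260 PLB arrays. In WT, Pmvk read 2.92, 3.18, 3.70 and 3.33 with E2, against 3.11, 3.26, 3.18 and 3.52 with PLB. The change of Pmvk was 0.33 in Arg260 (SE 0.15, adjusted p = 0.0644) and 0.02 in WT (SE 0.15, adjusted p = 0.935), not called in either. Its sign depended on the scaling: with quantile normalisation Pmvk stood at -0.06 in Arg260 and -0.33 in WT, and with normexp background correction and quantile normalisation it was called lower in WT (-0.34, adjusted p = 0.0361), as it was in the deposited series table (-0.33, adjusted p = 0.0431). With median scaling it was called higher in Arg260 (0.46, adjusted p = 0.0162), as with a trended, robust variance prior (0.33, adjusted p = 0.0487) and without any 1 of 3 E2 arrays (adjusted p = 0.0292 without Arg260 E2 replicate 3, 0.0389 without WT E2 replicate 1 and 0.0274 without WT E2 replicate 3).

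Acat2, which encodes the acetyl-CoA acetyltransferase of the first step, went the other way. Acat2 read -2.58, -2.61, -2.47 and -2.51 on Arg260 E2 arrays, against -1.75, -1.85, -2.06 and -2.08 on Arg260 PLB arrays. In WT, Acat2 read -2.74, -2.48, -2.55 and -2.65 with E2, against -1.95, -1.58, -1.72 and -2.11 with PLB. The E2 arrays lay below the PLB arrays without overlap in both genotypes, and Acat2 fell by 0.61 in Arg260 (SE 0.11, adjusted p = 2.29e-04) and by 0.77 in WT (SE 0.11, adjusted p = 2.67e-05). Within slide 2 the fall in Arg260 was -0.42 and was not called (adjusted p = 0.0797), and with normexp and quantile normalisation it stood at -0.37 in Arg260 and -0.50 in WT. Mouse Acat2 has a close paralogue, Acat3, and how far its RNA binds this probe was not tested.

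Of the 11 genes from squalene to cholesterol, 7 rose in both genotypes (Fdft1, Sqle, Lss, Cyp51, Msmo1, Hsd17b7 and Sc5d), and Tm7sf2 and Ebp fell in both. Sqle encodes squalene epoxidase, a control point of the path. Sqle read 4.23, 4.21, 3.69 and 4.25 on Arg260 E2 arrays, against 0.81, 0.57, 0.34 and 0.97 on Arg260 PLB arrays. In WT, Sqle read 3.21, 3.92, 4.42 and 3.59 with E2, against 0.59, 0.28, 0.35 and 0.27 with PLB. The rise of Sqle was 3.42 (10.7-fold, SE 0.22, adjusted p = 5.60e-09) in Arg260 and 3.41 (10.7-fold, SE 0.22, adjusted p = 5.80e-09) in WT.

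Cyp51, the lanosterol 14-demethylase gene, read 1.27, 1.32, 0.63 and 1.07 on Arg260 E2 arrays, against -2.40, -2.57, -2.53 and -2.22 on Arg260 PLB arrays. In WT, Cyp51 read 0.08, 0.73, 1.38 and 0.52 with E2, against -2.56, -2.63, -3.02 and -2.46 with PLB. Every E2 array lay above every PLB array, and Cyp51 rose by 3.50 in Arg260 (SE 0.23) and by 3.35 in WT (SE 0.23). Hsd17b7 encodes a reductase that acts on the sterol's 3-keto group and, in the mouse, also converts estrone to estradiol. Hsd17b7 read 0.16, 0.18, -0.50 and 0.18 on Arg260 E2 arrays, against -3.52, -3.51, -3.43 and -2.97 on Arg260 PLB arrays. In WT, Hsd17b7 read -1.11, -0.26, 0.44 and -0.46 with E2, against -3.54, -3.47, -3.38 and -3.64 with PLB. The rise of Hsd17b7 was 3.36 in Arg260 (SE 0.26) and 3.16 in WT (SE 0.26), and a second probe that was also well above background on all 16 arrays gave 3.40 in Arg260 and 3.26 in WT. The third probe of Hsd17b7 was well above background on 8 of 16 arrays, so no size is given from it.

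Msmo1, the gene of the methyl sterol oxidase, ranged from 3.45 to 4.15 on Arg260 E2 arrays, against 0.61 to 1.21 on Arg260 PLB arrays, and from 3.37 to 4.18 on WT E2 arrays, against 0.53 to 0.78 on WT PLB arrays. Msmo1 rose by 3.05 (SE 0.19) in Arg260 and by 3.06 (SE 0.19) in WT. Smaller rises were those of Fdft1 (squalene synthase) with 1.92 in Arg260 and 1.71 in WT, Sc5d (a desaturase) with 1.67 and 1.41, and Lss (the ring-closing synthase) with 1.44 and 1.39, in the same order. For these 4 genes too the E2 and PLB arrays did not overlap in either genotype. Within slide 2, with 2 arrays a group, Lss was not called in Arg260 (1.17, adjusted p = 0.0707).

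Tm7sf2, which encodes a sterol reductase that removes the double bond CYP51 leaves, read 0.27, -0.03, -0.06 and 0.20 on Arg260 E2 arrays, against 1.69, 1.72, 1.55 and 1.39 on Arg260 PLB arrays. In WT, Tm7sf2 read -0.01, 0.08, 0.40 and 0.05 with E2, against 1.56, 1.81, 1.62 and 1.5 with PLB. The groups did not overlap, and Tm7sf2 fell by 1.49 in Arg260 (SE 0.11, adjusted p = 3.42e-08) and by 1.5 in WT (SE 0.11, adjusted p = 3.34e-08), while Cyp51, of the step before it, rose. A second Tm7sf2 probe gave -1.62 in Arg260 and -1.61 in WT.

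Ebp, the gene of the sterol isomerase, read 3.11, 3.25, 3.25 and 3.40 on Arg260 E2 arrays, against 3.95, 4.06, 3.75 and 3.97 on Arg260 PLB arrays. In WT, Ebp read 3.02, 3.22, 3.46 and 3.44 with E2, against 4.02, 4.01, 3.99 and 4.07 with PLB. The groups did not overlap, and Ebp fell by 0.68 in Arg260 (SE 0.10) and by 0.74 in WT (SE 0.10). With quantile normalisation the fall of Ebp was -1.11 in Arg260 and -1.14 in WT.

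Nsdhl and Dhcr7 were not called. Nsdhl, a decarboxylating dehydrogenase gene that acts between Msmo1 and Hsd17b7, read -0.56, -0.89, -0.88 and -0.63 on Arg260 E2 arrays, against -0.84, -0.83, -0.73 and -0.76 on Arg260 PLB arrays. In WT, Nsdhl read -1.30, -0.93, -0.38 and -1.02 with E2, against -0.97, -0.72, -0.83 and -0.87 with PLB. The groups overlapped, at 0.05 in Arg260 (95% interval -0.27 to 0.37, adjusted p = 0.780) and -0.06 in WT (-0.38 to 0.26, adjusted p = 0.743). Another, dimmer Nsdhl probe, also well above background on all 16 arrays, gave 0.24 in Arg260 and 0.41 in WT. Its WT value lay above the interval of the first probe.

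Dhcr7 encodes the last reductase of one of the routes to cholesterol. Dhcr7 read -1.08, -1.84, -2.27 and -1.85 on Arg260 E2 arrays, against -1.73, -2.25, -1.74 and -1.73 on Arg260 PLB arrays. In WT, Dhcr7 read -2.47, -1.77, -1.0 and -1.96 with E2, against -2.25, -2.08, -1.95 and -2.01 with PLB. The E2 arrays of each genotype spread on both sides of the PLB arrays, and the change was 0.10 in Arg260 (95% interval -0.49 to 0.70, adjusted p = 0.759) and 0.27 in WT (-0.32 to 0.87, adjusted p = 0.413).

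**Figure D2:**
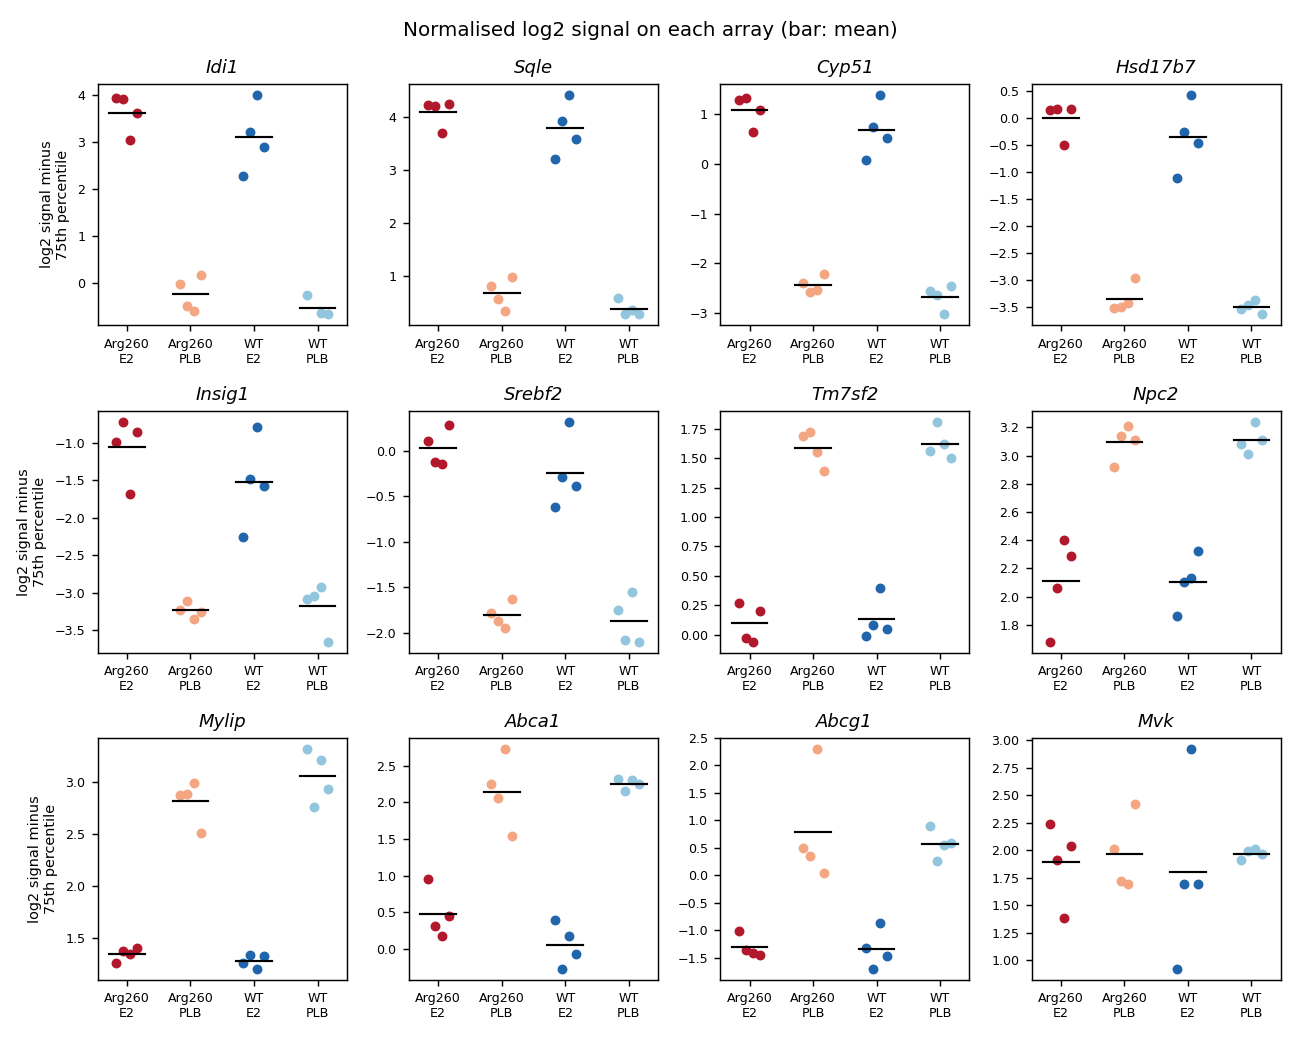
Normalised log2 signal (vertical axis, log2 signal minus the array's 75th percentile) of 12 genes on each array, by group from left to right: Arg260 E2, Arg260 PLB, WT E2, WT PLB. Each point is 1 array, replicates 1 to 4 from left to right, and the black bar is the group mean. Idi1, Sqle, Cyp51, Hsd17b7, Insig1 and Srebf2 are higher on every E2 array, Tm7sf2, Npc2, Mylip, Abca1 and Abcg1 are lower, and Mvk overlaps.

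The lowest and the highest WT E2 array were nearly the same from enzyme to enzyme of synthesis, for the enzymes that E2 raised and the others alike. Among the 4 WT E2 arrays, replicate 1 was the lowest for 18 of the 18 enzymes and replicate 3 the highest for 17 of 18. Among all genes with a value on each of these arrays, replicate 1 was the lowest for 26.9% and replicate 3 the highest for 25.6%. The 18 include Acat2, Tm7sf2 and Ebp, which fell with E2, and Mvk, Pmvk, Nsdhl and Dhcr7, which were not called. Among the 4 Arg260 E2 arrays, replicate 3 was the lowest for 15 of the 18, beside 33.7% of all genes. These 15 were the 11 of 11 raised enzymes and 4 of the other 7, since Acat2 was highest on replicate 3 and lowest on replicate 2, Nsdhl was lowest on replicate 2 and Ebp on replicate 1. With quantile normalisation, with or without normexp, the WT counts were 18 lowest and 17 highest, and with median scaling 17 lowest and 18 highest.

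Over the 11 raised enzymes, the mean deviation from the group mean was 0.22, 0.14, -0.52 and 0.15 on Arg260 E2 replicates 1 to 4, and -0.59, 0.00, 0.72 and -0.13 on WT E2 replicates 1 to 4. On the 8 PLB arrays the same mean lay between -0.12 and 0.17, so the E2 arrays were the more spread. Fdps had an SD of 0.46 on Arg260 E2 arrays, against 0.15 on Arg260 PLB arrays, and of 0.82 on WT E2 arrays, against 0.14 on WT PLB arrays. This pattern was noticed in these data and is given as a description, with no test.

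Other values moved over the same arrays. The mean signal of 10 adipocyte markers was -1.81, -2.26, 0.29 and -0.41 on Arg260 E2 replicates 1 to 4, and -3.70, -0.65, -0.88 and -1.81 on WT E2 replicates 1 to 4. It was thus lowest on WT E2 replicate 1, where synthesis was lowest in WT, and highest on Arg260 E2 replicate 3, where synthesis was lowest in Arg260. The mean signal of 7 stroma markers was 4.58, 4.09, 4.52 and 4.34 on Arg260 E2 replicates 1 to 4, and 3.91, 4.57, 5.19 and 4.05 on WT E2 replicates 1 to 4. In WT it was thus lowest on replicate 1 and highest on replicate 3, as synthesis was, while in Arg260 it was lowest on replicate 2. The mean of 8 epithelium markers was 3.88, 3.72, 3.51 and 3.64 on Arg260 E2 replicates 1 to 4, and 3.64, 3.49, 3.77 and 3.74 on WT E2 replicates 1 to 4. It was lowest on Arg260 E2 replicate 3, as synthesis was, and on WT E2 replicate 2, and in WT it was highest on replicate 3. The mean of 6 smooth muscle markers was 6.06, 5.76, 5.88 and 5.84 on Arg260 E2 replicates 1 to 4. On WT E2 replicates 1 to 4 it was 5.71, 6.05, 6.25 and 5.70. In the same order the mean of 10 macrophage markers was 0.59, 0.40, 0.99 and 0.68, and 0.18, 0.47, 0.34 and 0.42. For 6 endothelium markers it was 0.82, 0.82, 0.90 and 0.82, and 0.81, 0.77, 0.71 and 0.75. The share of spots well above background was 68.5% on WT E2 replicate 1, 67.1% on WT E2 replicate 3 and 65.1% on Arg260 E2 replicate 3, within the range of the other arrays. The part of tissue composition in the spread was not tested.

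**Figure D3:**
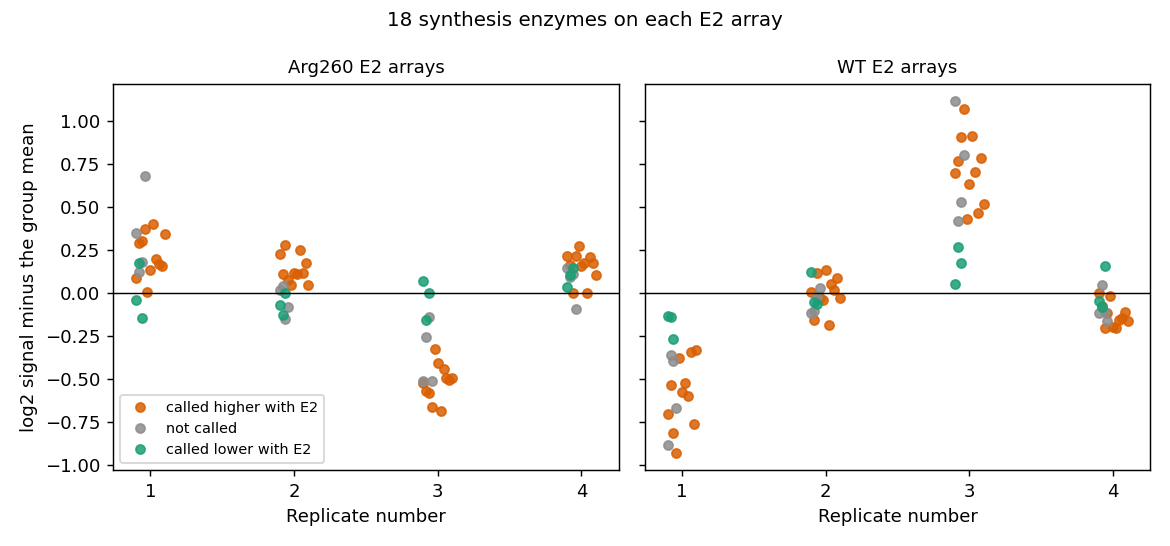
Deviation of each of the 18 enzymes of synthesis from its group mean (vertical axis, log2) on the 4 Arg260 E2 arrays (left) and the 4 WT E2 arrays (right), by replicate number. Each point is 1 gene, orange if called higher with E2, green if called lower and grey if not called. On WT E2 replicate 1 all 18 points lie below 0 and on replicate 3 all lie above it, and on Arg260 E2 replicate 3 the raised enzymes lie below 0.

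The 5 genes of the sterol sensor mostly rose. Insig1, whose product retains SCAP and whose transcription SREBPs themselves drive, read -0.99, -0.72, -1.68 and -0.86 on Arg260 E2 arrays, against -3.23, -3.11, -3.35 and -3.25 on Arg260 PLB arrays. In WT, Insig1 read -2.26, -1.48, -0.79 and -1.58 with E2, against -3.08, -3.04, -2.92 and -3.65 with PLB. The groups did not overlap, and, as for the enzymes, replicate 3 was the lowest Arg260 E2 array, replicate 1 the lowest WT E2 array and replicate 3 the highest. The rise of Insig1 was 2.17 in Arg260 (4.52-fold, SE 0.27, adjusted p = 4.83e-06) and 1.64 in WT (3.12-fold, SE 0.27, adjusted p = 7.88e-05).

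Insig2, which encodes the second such retention protein, read 2.05, 2.12, 2.12 and 2.14 on Arg260 E2 arrays, against 2.29, 2.36, 2.12 and 2.21 on Arg260 PLB arrays. In WT, Insig2 read 2.23, 2.13, 1.96 and 2.04 with E2, against 2.42, 2.25, 2.30 and 2.46 with PLB. WT E2 and WT PLB arrays did not overlap, and Insig2 fell by 0.27 in WT (SE 0.08, adjusted p = 0.00647). In Arg260 the change of Insig2 was -0.14 (SE 0.08, adjusted p = 0.133), not called. The call in WT was lost with median scaling (-0.12, adjusted p = 0.203) and within slide 1 (-0.16, adjusted p = 0.258). In Arg260, Insig2 was called lower with quantile normalisation (-0.44), with normexp besides (-0.46), in the series table (-0.47) and as the mean of its 2 probes (-0.26), so the single difference in calls between the genotypes rests on the scaling and the probe.

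Srebf2, the gene of the SREBP most tied to cholesterol synthesis, read 0.11, -0.12, -0.14 and 0.29 on Arg260 E2 arrays, against -1.78, -1.87, -1.95 and -1.63 on Arg260 PLB arrays. In WT, Srebf2 read -0.62, -0.29, 0.32 and -0.39 with E2, against -1.75, -2.08, -1.55 and -2.10 with PLB. The groups did not overlap, and Srebf2 rose by 1.84 in Arg260 (SE 0.18, adjusted p = 4.84e-07) and by 1.63 in WT (SE 0.18, adjusted p = 1.82e-06). A second, dimmer Srebf2 probe gave 0.92 in Arg260 and 0.90 in WT.

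Srebf1, whose products act on fatty acid as well as sterol genes, read -1.61, -1.54, -1.42 and -1.31 on Arg260 E2 arrays, against -2.14, -2.26, -1.88 and -2.11 on Arg260 PLB arrays. In WT, Srebf1 read -1.80, -1.56, -1.32 and -1.34 with E2, against -1.90, -1.95, -1.96 and -2.23 with PLB. Without overlap, Srebf1 rose by 0.63 in Arg260 (SE 0.12) and by 0.50 in WT (SE 0.12, adjusted p = 0.00193), though within slide 1 the WT value was 0.24 and was not called (adjusted p = 0.135). Scap rose by 0.61 in Arg260 (SE 0.07) and by 0.58 in WT (SE 0.07), and with quantile normalisation by 0.17 in Arg260 and 0.21 in WT.

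Among the 3 carriers, Stard4, the gene of a soluble protein that ferries sterol between membranes, rose, and Npc1 and Npc2, whose products pass cholesterol out of the lysosome, fell. Stard4 ranged from 0.39 to 1.21 on Arg260 E2 arrays, against 0.11 to 0.49 on Arg260 PLB arrays, and from 0.32 to 1.37 on WT E2 arrays, against 0.00 to 0.40 on WT PLB arrays. The groups overlapped, and the rise of Stard4 was 0.60 in Arg260 (SE 0.21, adjusted p = 0.0187) and 0.63 in WT (SE 0.21, adjusted p = 0.0146). It was not called in Arg260 without Arg260 E2 replicate 1 (0.51), Arg260 E2 replicate 2 (0.52) or Arg260 PLB replicate 3 (0.54), or within slide 2 (0.41), nor in WT without WT E2 replicate 3 (0.45), within slide 1 (0.28) or without the 3 arrays named above (0.43). A second, dimmer Stard4 probe gave 1.2 in Arg260 and 1.24 in WT.

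Npc1 encodes the membrane protein of the lysosome and Npc2 the soluble one. Npc1 read -1.97, -1.99, -1.69 and -2.04 on Arg260 E2 arrays, against -1.35, -1.22, -0.89 and -1.24 on Arg260 PLB arrays. In WT, Npc1 read -1.98, -1.55, -1.83 and -1.63 with E2, against -1.17, -1.19, -1.24 and -1.10 with PLB. E2 arrays lay below PLB arrays without overlap, and Npc1 fell by 0.75 in Arg260 (SE 0.12) and by 0.57 in WT (SE 0.12), the WT value within slide 2 being -0.56 with an adjusted p = 0.0591.

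Npc2 read 1.68, 2.06, 2.40 and 2.29 on Arg260 E2 arrays, against 2.92, 3.14, 3.21 and 3.11 on Arg260 PLB arrays. In WT, Npc2 read 1.86, 2.10, 2.13 and 2.32 with E2, against 3.08, 3.01, 3.24 and 3.11 with PLB. The groups were apart in both genotypes, and Npc2 fell by 0.99 in Arg260 (1.99-fold, SE 0.14) and by 1.01 in WT (2.01-fold, SE 0.14).

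All 3 genes of export and receptor turnover fell in both genotypes. Abca1 encodes the exporter that loads cholesterol onto lipid-poor apolipoprotein. Abca1 read 0.95, 0.32, 0.18 and 0.45 on Arg260 E2 arrays, against 2.25, 2.06, 2.73 and 1.54 on Arg260 PLB arrays. In WT, Abca1 read 0.39, -0.27, 0.18 and -0.07 with E2, against 2.32, 2.15, 2.30 and 2.25 with PLB. The groups lay apart, and Abca1 fell by 1.67 in Arg260 (3.18-fold, SE 0.22, adjusted p = 1.08e-05) and by 2.20 in WT (4.58-fold, SE 0.22, adjusted p = 6.44e-07).

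Abcg1 encodes an exporter that passes cholesterol to mature lipoprotein particles. Abcg1 read -1.02, -1.36, -1.42 and -1.44 on Arg260 E2 arrays, against 0.49, 0.35, 2.30 and 0.05 on Arg260 PLB arrays. In WT, Abcg1 read -1.32, -1.70, -0.87 and -1.47 with E2, against 0.90, 0.26, 0.55 and 0.58 with PLB. Arg260 PLB replicate 3 stood well above the rest for Abcg1, and for Abca1 it was the highest of its group at 2.73, the others lying between 1.54 and 2.25. Abcg1 fell by 2.11 in Arg260 (SE 0.37, adjusted p = 1.60e-04) and by 1.91 in WT (SE 0.37, adjusted p = 3.79e-04). Without Arg260 PLB replicate 3 the fall in Arg260 was -1.60 (adjusted p = 7.82e-06) for Abcg1 and -1.47 (adjusted p = 2.56e-05) for Abca1. Within slide 2 the WT fall of Abcg1 was -1.73 and was not called (adjusted p = 0.0861).

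Mylip read 1.26, 1.37, 1.34 and 1.40 on Arg260 E2 arrays, against 2.88, 2.89, 2.99 and 2.51 on Arg260 PLB arrays. In WT, Mylip read 1.26, 1.33, 1.2 and 1.32 with E2, against 3.32, 2.76, 3.21 and 2.93 with PLB. These were the tightest E2 groups among the 3 genes and did not overlap with PLB. Mylip fell by 1.48 in Arg260 (SE 0.12, adjusted p = 6.72e-08) and by 1.78 in WT (SE 0.12, adjusted p = 1.01e-08), and a second probe gave -1.94 in Arg260 and -1.70 in WT.

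The uterus is a mixed tissue, and in such bulk samples fewer cells of a type and less RNA per cell cannot be told apart. Of 10 adipocyte markers, 3 fell and 0 rose with E2 in Arg260 (median change -1.62), and 10 fell in WT (median -3.64). Their mean signal ranged from -2.26 to 0.29 on Arg260 E2 arrays, against -0.30 to 1.15 on Arg260 PLB arrays, and from -3.70 to -0.65 on WT E2 arrays, against 0.13 to 1.88 on WT PLB arrays. Only Lep, the leptin gene, was not well above background on any E2 array of either genotype. Of 10 macrophage markers, 1 rose and 3 fell in Arg260, and 1 rose and 2 fell in WT. Their mean ranged from 0.40 to 0.99 on Arg260 E2 arrays, against 0.52 to 2.01 on Arg260 PLB arrays, and from 0.18 to 0.47 on WT E2 arrays, against 0.58 to 0.78 on WT PLB arrays. The value of 2.01 was that of Arg260 PLB replicate 3, the array with the highest Abca1 and Abcg1. Cd163 was not well above background on any Arg260 PLB or WT E2 array. Of 7 stroma markers, 4 fell and 0 rose in each genotype, with a median change of -0.86 in Arg260 and -0.74 in WT. Their mean ranged from 4.09 to 4.58 on Arg260 E2 arrays, against 5.06 to 5.82 on Arg260 PLB arrays, and from 3.91 to 5.19 on WT E2 arrays, against 4.81 to 5.67 on WT PLB arrays. Of 8 epithelium markers, 5 rose and 1 fell in Arg260 (median 0.43), and 3 rose and 1 fell in WT (median 0.22). Their mean ranged from 3.51 to 3.88 on Arg260 E2 arrays, against 3.12 to 3.50 on Arg260 PLB arrays, and from 3.49 to 3.77 on WT E2 arrays, against 3.04 to 3.59 on WT PLB arrays. Of 6 smooth muscle markers, 1 rose in Arg260 and 3 in WT, and 0 fell. Of 6 endothelium markers, 2 rose and 1 fell in Arg260, and 1 rose and 3 fell in WT. The part of these cells in the rises of the enzymes and in the falls of Abca1, Abcg1, Npc1 and Npc2 was not tested. The rises of the 11 enzymes spanned 1.44 to 3.85 in Arg260 and 1.39 to 3.62 in WT.

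Between the genotypes, none of the 29 genes was called. This held for the difference of the E2 responses, for Arg260 E2 against WT E2 and for Arg260 PLB against WT PLB, in each of which limma called 0% of all 25862 genes tested. At an unadjusted p under 0.05 there were 969, 1906 and 644 genes in these 3 comparisons, and 0 of the 29 in each. Over the 29 genes the difference of the E2 responses (Arg260 minus WT) ranged from -0.19 to 0.53 with a median of 0.12, beside 0.035 over all genes. It was above 0 for 22 genes, below 0 for 4 and 0.00 for 3. These signs are not independent, since the enzymes of synthesis moved together over the E2 arrays. The same count over all genes was not made.

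The widest differences were those of Insig1, at 0.53 (95% interval -0.28 to 1.35), and Abca1, at 0.53 (-0.15 to 1.2), with Pmvk at 0.31 (-0.13 to 0.76) and Mylip at 0.30 (-0.06 to 0.67). For Sqle the difference was 0.01 (-0.66 to 0.67), for Msmo1 0.00 (-0.58 to 0.57) and for Tm7sf2 0.00 (-0.34 to 0.35). With 4 arrays a group, half-widths of these 95% intervals ran from 0.22 for the steadiest of the 29 genes to 1.13. A difference smaller than its half-width gives an interval that includes 0. Larger differences could also go uncalled, since calls were adjusted over all genes tested. With E2, Arg260 minus WT ranged from -0.18 to 0.53 over the 29 genes, and with PLB from -0.24 to 0.30. Across the 29 genes the Arg260 and WT changes, which share no arrays, had a Pearson r of 0.99, as a description over genes of 1 pathway that are not independent.

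**Figure D4:**
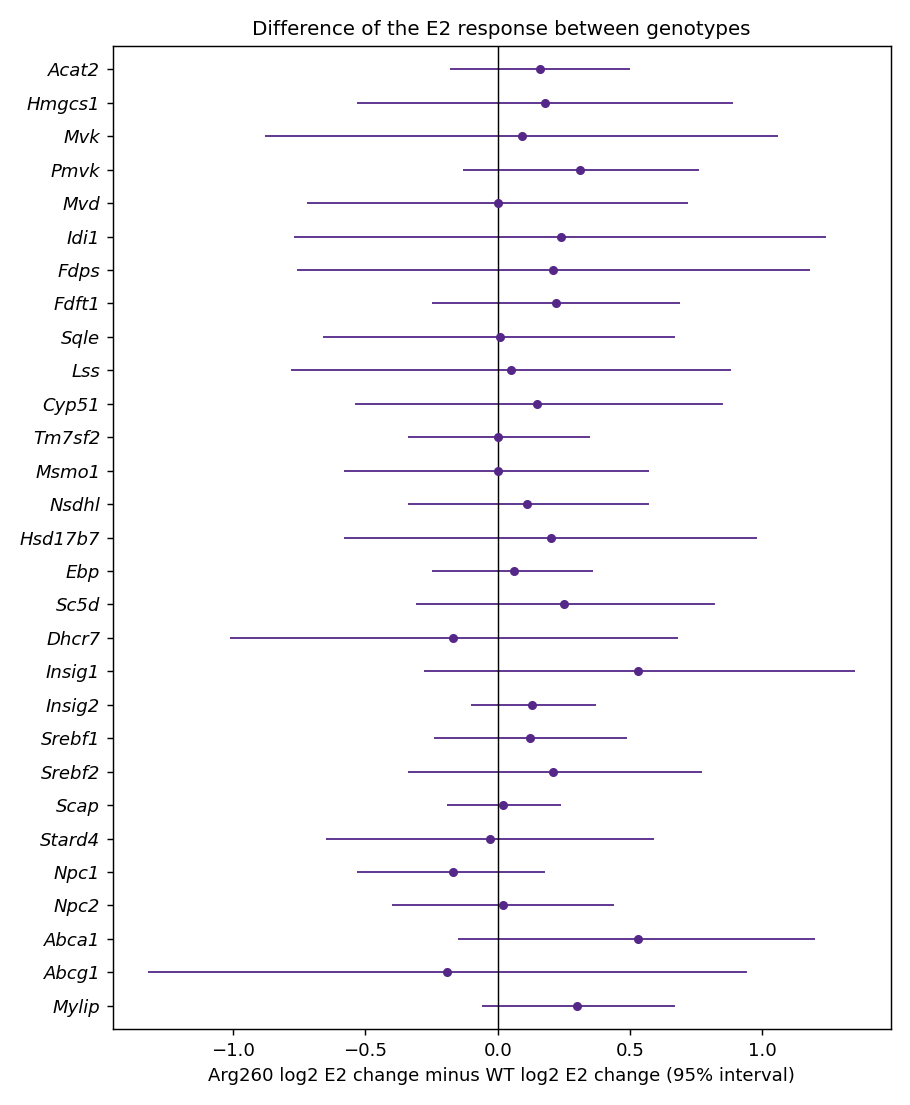
Difference between the genotypes in the E2 response of the 29 genes (horizontal axis, Arg260 log2 E2 change minus WT log2 E2 change), with the 95% interval from the limma fit. Every interval includes 0, and the points run from -0.19 for Abcg1 to 0.53 for Insig1 and Abca1.

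Promoters were searched because the raised enzymes moved together and SREBPs act through short DNA elements. RefSeq promoters (250 bases before to 50 after the start of transcription, build GRCm38.p6) were found for 23 of the 29 genes, 31 promoters in all. The core of the sterol regulatory element was searched on both strands in 1 form only, TCACNCCAC. This form lay in 1 of the 23 genes, Hmgcs1, beside 1.42% of the genes tested that have a promoter in the table. Sterol elements that depart from these letters were not counted. The CCAAT box (CCAAT), bound by NF-Y, which works with SREBPs, lay in 20 of the 23, beside 42.12%. The Sp1 box (GGGCGG) lay in 22 of the 23, beside 60.13%, and the E-box (CACGTG) in 6 of the 23, beside 10.48%. A palindrome of GGTCA and TGACC with 3 bases between, the exact form of the estrogen response element searched, lay in 0 of the 23, beside 0.05%. For the LXR element, only an exact direct repeat of AGGTCA with 4 bases between was searched. It lay in 0 of the 23 and also in 0 of the tested genes. This count therefore cannot tell whether these promoters hold an LXR element with other letters.

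CCAAT and Sp1 boxes were spread over raised and other genes alike: the CCAAT box lay in 11 of the 12 raised genes with a promoter and in 9 of the 11 others, and the Sp1 box in 12 of 12 and 10 of 11. Matches of different motifs did not overlap. Promoters follow 5′ to 3′ for Hmgcs1 (the 1 with the searched form of the sterol element) and for Abca1 (the largest fall in WT). Between them stand Idi1, Cyp51 and Hsd17b7 (the largest rises with a promoter in the table). Exact matches of the searched sterol element, the CCAAT box and the Sp1 box are in capitals, in either orientation.
Hmgcs1: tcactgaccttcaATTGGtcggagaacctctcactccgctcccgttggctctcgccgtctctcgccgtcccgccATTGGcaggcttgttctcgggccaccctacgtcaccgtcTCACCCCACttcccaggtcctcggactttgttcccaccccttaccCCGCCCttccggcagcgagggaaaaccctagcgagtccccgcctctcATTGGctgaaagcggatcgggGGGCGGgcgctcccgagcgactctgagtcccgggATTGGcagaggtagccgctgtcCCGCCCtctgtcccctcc
Idi1: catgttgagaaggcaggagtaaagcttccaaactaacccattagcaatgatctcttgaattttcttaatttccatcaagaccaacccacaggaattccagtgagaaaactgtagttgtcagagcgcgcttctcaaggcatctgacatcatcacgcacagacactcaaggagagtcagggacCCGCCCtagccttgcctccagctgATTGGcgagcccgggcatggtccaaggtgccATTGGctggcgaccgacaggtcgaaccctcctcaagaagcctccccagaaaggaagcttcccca
Cyp51: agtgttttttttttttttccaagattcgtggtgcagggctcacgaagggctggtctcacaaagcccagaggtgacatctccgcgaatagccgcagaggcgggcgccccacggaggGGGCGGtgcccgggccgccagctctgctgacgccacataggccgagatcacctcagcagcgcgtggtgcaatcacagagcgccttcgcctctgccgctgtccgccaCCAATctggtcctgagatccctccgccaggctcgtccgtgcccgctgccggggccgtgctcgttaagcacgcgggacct
Hsd17b7: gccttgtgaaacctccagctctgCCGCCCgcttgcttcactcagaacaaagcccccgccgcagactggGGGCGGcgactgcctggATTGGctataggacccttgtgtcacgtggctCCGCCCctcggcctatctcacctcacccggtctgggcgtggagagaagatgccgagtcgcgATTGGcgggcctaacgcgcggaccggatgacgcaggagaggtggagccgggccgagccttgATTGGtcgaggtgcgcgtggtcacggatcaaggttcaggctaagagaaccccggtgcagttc
Abca1: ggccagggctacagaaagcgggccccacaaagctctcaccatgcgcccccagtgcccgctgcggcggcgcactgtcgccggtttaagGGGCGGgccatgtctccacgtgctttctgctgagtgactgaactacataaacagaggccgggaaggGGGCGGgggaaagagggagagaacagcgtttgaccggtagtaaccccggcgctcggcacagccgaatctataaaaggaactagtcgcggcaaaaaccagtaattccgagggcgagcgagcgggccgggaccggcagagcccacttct

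The Hmgcs1 promoter (chr13:119690101-119690400, strand +) holds the sterol element, TCACCCCAC, with its first base at -137 from the start of transcription, beside 4 CCAAT boxes and 3 Sp1 boxes. The Idi1 promoter (chr13:8885356-8885655, strand +) has 2 CCAAT boxes and 1 Sp1 box. The Cyp51 promoter (chr5:4104648-4104947, strand -) has 1 of each. The Hsd17b7 promoter (chr1:169969156-169969455, strand -) has 3 of each, and an E-box. The Abca1 promoter (chr4:53159846-53160145, strand -), of a gene that fell, has 2 Sp1 boxes and an E-box and no CCAAT box. A match is a description of letters. The absence of one says nothing of other forms of the element in the same promoter, nor of a factor's binding there or elsewhere.

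The microarray probes themselves lay, on build mm9, at chr13:8891524-8891583 for Idi1, chr15:59162688-59162747 for Sqle, chr5:4081471-4081530 for Cyp51, chr1:171883182-171883241 for Hsd17b7, chr19:6062882-6062941 for Tm7sf2, chr4:53043944-53044003 for Abca1 and chr13:45506979-45507038 for Mylip. Whether they fall in coding or untranslated sequence is not given in the files.

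Genes of neighbouring pathways were counted beside the 29. The counts below stand beside the shares of all genes tested. These were 33.7% called higher and 30.9% lower in Arg260, and 32.0% higher and 31.9% lower in WT. Of 10 genes of SREBP processing and sterol-regulated degradation, 7 rose and 1 fell in Arg260 (median 0.62), and 8 rose and 1 fell in WT (median 0.54). Mbtps1, the gene of the first protease that cuts SREBPs, fell by 0.30 in Arg260 and by 0.39 in WT.

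Of 12 genes of the isoprenoid branch, which draws on the product of Fdps, 9 rose and 1 fell in Arg260 (median 0.52), and 8 rose and 1 fell in WT (median 0.51). Pdss1, for the side chain of ubiquinone, rose by 1.90 in Arg260 and 1.85 in WT, Rabggtb, a subunit of the enzyme that prenylates Rab proteins, by 1.46 and 1.31, and Dhdds, of dolichol synthesis, changed by -0.25 and -0.41, in the same order. Of 15 genes of fatty acid synthesis, 5 rose and 4 fell in Arg260 (median -0.17), and 5 rose and 7 fell in WT (median -0.13). Fasn rose by 1.40 in Arg260 and 1.13 in WT and Elovl1, an elongase gene, by 1.17 and 1.13, whereas Lpin1 fell by 2.19 in Arg260 and fell by 2.52 in WT. Thrsp, a lipogenic regulator abundant in fat, fell by 1.74 in Arg260 and fell by 2.49 in WT.

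Of 12 genes of oxysterols and LXR, 3 rose and 6 fell in Arg260 (median -0.16), and 3 rose and 7 fell in WT (median -0.29). Ch25h, which encodes the 25-hydroxylase that turns cholesterol into an oxysterol, rose by 3.36 in Arg260 (SE 0.18) and by 3.18 in WT (SE 0.18), and Arl4c, a known LXR target, by 1.14 and 1.18. Among the other oxysterol enzyme genes, Cyp27a1 had a log2 change of -1.5 in Arg260 and -1.69 in WT, and Cyp39a1 of -2.35 and -1.86, all called lower. Arl4c rose while Abca1, Abcg1 and Mylip, which are also known LXR targets, fell.

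Of 19 genes of cholesterol esters, other receptors and transfer, 8 rose and 6 fell in Arg260 (median 0.04), and 7 rose and 7 fell in WT (median -0.01). Lrp8, a lipoprotein receptor gene, was called higher in both genotypes, by 3.19 in Arg260 and 2.62 in WT. These sizes are not exact, because Lrp8 was well above background on only 2 of 4 Arg260 PLB and 1 of 4 WT PLB arrays. Tmem97, whose product binds NPC1, rose by 1.89 in Arg260 and 1.87 in WT. Lipa, the gene of the lysosomal lipase that frees cholesterol from its esters, fell by 1.92 in Arg260 and fell by 1.89 in WT, alongside Npc1 and Npc2 of the same compartment, and Gramd1c fell by 1.62 in Arg260 and fell by 1.63 in WT.

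**Figure D5:**
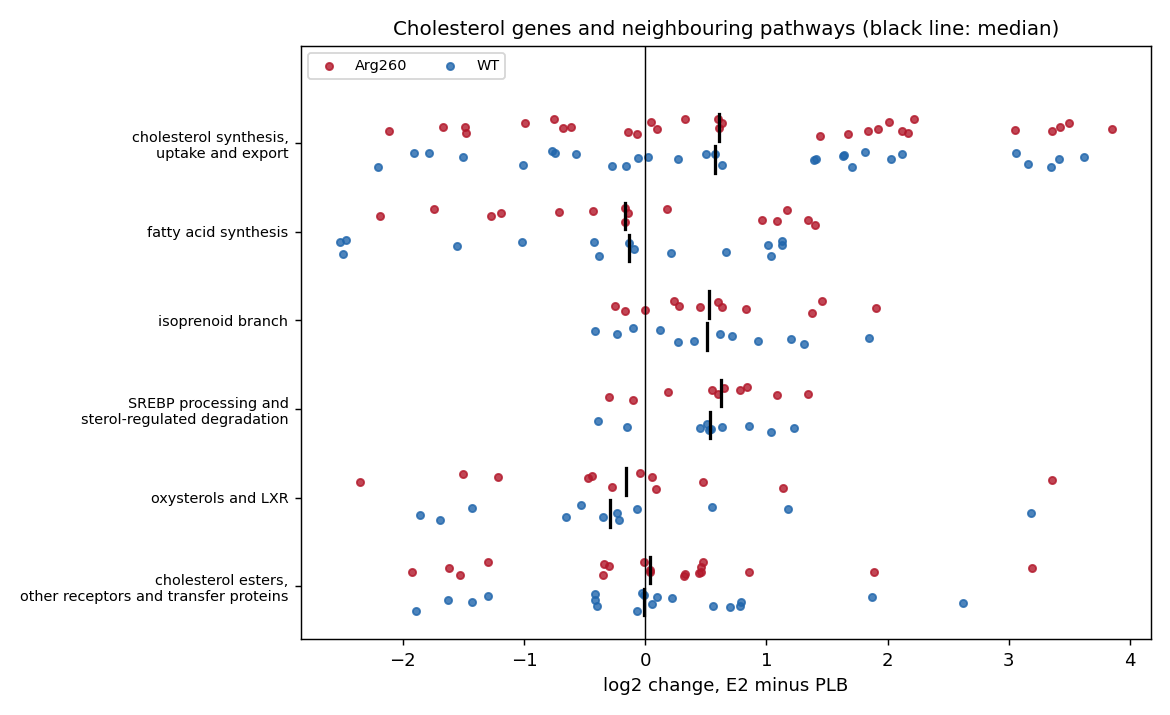
Log2 change with E2 (E2 minus PLB, horizontal axis) of the 29 genes and of the genes of 5 neighbouring pathways, red above for Arg260 and blue below for WT. Each point is 1 gene, placed with a random vertical offset, and the black line is the median, which runs from -0.17 for fatty acid synthesis in Arg260 and -0.29 for oxysterols and LXR in WT to 0.62 for SREBP processing in Arg260.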

How the data were processed

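Spot intensities of the 16 arrays were deposited as the authors' output of Agilent Feature Extraction 10.10.1.1 (tool named in the submitters' processing notes). Background had been subtracted within each array and nothing was done between arrays, per the file headers. A deposited table of log2 values, for which the submitters' processing notes name limma, served as an alternative and to leave out the 228 spots it lists as missing, all on WT PLB replicate 2.

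From log2 signals, the array's own 75th percentile (922.1 to 1295.7 intensity units over 59305 spots that are no controls) was subtracted, outlier spots were left out and spots of 1 probe averaged. A probe had to exceed background by the deposited flag on 4 or more of 16 arrays (38683 of 55681 did), and the brightest probe stood for each of 25862 genes. Group means were fitted with limma 3.58.1 in R 4.3.3 (12 residual degrees of freedom), two-sided, with Benjamini-Hochberg adjustment over all genes and a threshold of 0.05. Precision is limited by the number of arrays, with a median 95% half-width of 0.295 for the E2 effect in WT and of 0.417 for the difference between genotypes. Replicates correlated at 0.981 to 0.993 over genes.

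The 29 genes, the lists beside them and the tests were chosen with earlier results of these data known. Per-array values are given for the 4 largest changes, for genes that fell or were not called, and for sensor and export genes. From each neighbouring list, up to 2 genes called higher and 2 called lower are named, by the size of their WT change, except 2 that are not reported here. Names came from RefSeq for 27235 probes by accession, 3581 by symbol and 565 by synonym. The other 24300 kept the file's name. Deviations of arrays of different groups with the same number had an r of -0.111 to 0.276 over 24 pairs (median 0.033). Over the 72 pairs with different numbers r was -0.306 to 0.323 (median -0.016), so numbers were not treated as pairs. Alternatives were other scalings, filters and probe rules, slide and replicate blocks, single slides and each array left out. The steps were tested on simulated data. Other genes of the pathway were not analysed here.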

Additional observations from a re-analysis of the deposited data

Results flagged for a closer look

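Within the groups of 4 arrays, 115 sets of 4 values of the 29 genes were compared with Dixon's 95% criterion for a value far from the others, which chance alone passes in about 1 set in 20, and 5 passed. Among Arg260 E2 arrays, replicate 3 stood low for Sqle (3.69, the others 4.21 to 4.25), for Msmo1 (3.45, the others 4.06 to 4.15) and for Hsd17b7 (-0.50, the others 0.16 to 0.18). Among Arg260 PLB arrays, replicate 4 stood high for Hsd17b7 (-2.97, the others -3.52 to -3.43), and replicate 2 stood low for Dhcr7 (-2.25, the others -1.74 to -1.73). The 3 low values on Arg260 E2 replicate 3 are of enzymes that share the array, and are not independent. Without that array the rises in Arg260 and WT were still called for these 3 enzymes.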

How the results depend on the processing

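Over 15 other settings, the number of the 29 genes called higher with E2 was 14 to 17 in Arg260 (16 as reported) and 14 to 16 in WT (16), and the number called lower was 7 to 9 in Arg260 (8) and 7 to 10 in WT (9). Leaving out each of the 16 arrays in turn gave 15 to 17 higher and 8 lower in Arg260, and 15 to 16 higher and 9 lower in WT. With the replicate number as a block, which is no pairing here, the counts in WT were 16 higher and 9 lower. Of 1796 alternative values of the 58 E2 results, 1745 kept their direction and their side of the threshold, 14 lost a call, 9 gained one with the same sign and 28 changed sign, all 28 in genes not called as reported. Of these 28, 2 were also called, so 11 alternative values in all gained a call; both were lower calls of Pmvk in WT, with normexp and quantile normalisation and in the series table.

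The changes of sign were these; the cause was not tested. In Arg260, Mvk was 0.07 with median scaling and 0.21 within slide 1, Pmvk was -0.06 with quantile normalisation, with normexp besides and in the series table, and within slide 2 Nsdhl was -0.01 and Dhcr7 -0.32. In WT, Mvk was 0.32 within slide 2, and Pmvk was -0.34 with normexp and quantile normalisation, -0.33 with quantile normalisation and in the series table, -0.13 within slide 1 and -0.13 without the 3 arrays that stood apart. In WT, Nsdhl was 0.01 with normexp and quantile normalisation, 0.03 with quantile normalisation, 0.08 with median scaling, 0.18 as the mean of its probes and 0.15 within slide 2. With each array left out in turn, the values ran from -0.19 to 0.10 for Mvk, -0.01 to 0.10 for Nsdhl and -0.12 to 0.28 for Dhcr7 in Arg260, and from -0.53 to 0.13 for Mvk, -0.12 to 0.14 for Pmvk and -0.24 to 0.07 for Nsdhl in WT.

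Median scaling moved the median change of all genes to 0.15 in Arg260 and 0.12 in WT, and its calls were 10217 higher and 6615 lower in Arg260 and 9861 higher and 6780 lower in WT, beside 8712 and 7991 in Arg260 and 8270 and 8238 in WT as reported. Within 1 slide a group had 2 arrays.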
